A study of Mus musculus with 8 samples.

Results

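The cytosolic ribosomal protein genes encode the proteins of the 40S and 60S subunits of the ribosome. They were taken here as the protein-coding rows whose symbol is Rpl or Rps followed by a number, with an optional a, x, y or final l, together with Rplp0, Rplp1, Rplp2 and Rpsa. The rule found 82 of the 55536 genes in the table, 32 of the 40S and 50 of the 60S subunit. No measured value entered the choice. The tissue was the posterior part of the palatal shelves at E14.5 in mouse, dissected before elevation, with epithelium and mesenchyme together. The 4 control libraries were from embryos with floxed Yap and Taz alleles and no Cre (Yapfl/fl;Tazfl/fl). The 4 mutant libraries were from embryos that carried Col2Cre in addition (Yapfl/fl;Tazfl/fl;Col2Cre). Both groups therefore share the floxed alleles, and the controls lack the Cre transgene. Col2Cre is active where Col2a1 regulatory sequence is, so it reaches some cells of the tissue and not others. Whether each library came from a different embryo is not said in the labels, so a p-value here measures only the spread between these samples, which may be technical.

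Most ribosomal proteins assemble with ribosomal RNA in equal molar amounts. Their messenger RNAs are among the most abundant of growing cells, and most start with an uninterrupted stretch of pyrimidines at the cap, the terminal oligopyrimidine (TOP) motif, through which mTORC1 and Larp1 control their translation. Ribosome production is tied to growth, and YAP and TAZ, the co-activators of the Hippo pathway, are known regulators of growth. Haploinsufficiency of several ribosomal protein genes causes Diamond-Blackfan anaemia, which can include craniofacial defects such as cleft palate. The genes are short and have left many processed pseudogenes in the mouse genome, so reads from a gene and from its copies can be hard to tell apart.

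Values are normalised counts, in which the reads of a gene are scaled by a size factor for each library. Recovered totals were 29025089 to 32437977 reads per library. For Yap1 the controls averaged 9610 ± 429 and the mutants 8463 ± 277 (SD, n = 4), with no overlap between the groups, and Wwtr1, which encodes TAZ, had 4879 ± 352 and 4007 ± 397 (SD, n = 4), with overlap. Both are whole-gene counts, and the deleted exons were not examined. Of 16647 genes tested with limma on log2(normalised count + 1), 4 passed an adjusted p of 0.05 (0.024%), all lower in mutants. They were Lsamp, Gm42418, Gm23935 and CT010467.1, named here after their values were seen. Means of several cell type marker lists differed between the groups. None of the 14 tested osteogenic genes and 1 of 14 chondrogenic genes had a higher mean in mutants, with median log2 differences of -0.75 and -0.55. All 24 epithelial and periderm genes had a higher mean, with a median of 0.22, as did 11 of 13 erythroid genes (median 0.29) and 9 of 10 Schwann and neural crest glia genes (median 0.43). Endothelial genes were higher in 3 of 14, skeletal muscle genes in 7 of 12, macrophage genes in 7 of 10 and palatal mesenchyme genes in 6 of 10. No gene of these lists passed the adjusted threshold. The summed osteogenic counts spanned 266566 to 297510 in controls and 156737 to 245579 in mutants, and Bglap was at 0 in all libraries. In whole tissue, fewer cells of a type and less RNA per cell cannot be told apart, and the part of these shifts in the values below was not tested.

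Mutant and control shelves had close to the same level of ribosomal protein transcripts. The 82 genes together held 1.35%, 1.295%, 1.17% and 1.31% of the protein-coding signal in controls 1 to 4, and 1.27%, 1.33%, 1.32% and 1.36% in mutants 1 to 4. The means were 1.28% ± 0.077 in controls and 1.32% ± 0.035 in mutants (SD, n = 4), a difference of 0.034 percentage points that is smaller than either SD. Control 3 was the lowest library, and without it the difference was -0.003. The genes of the 40S subunit took 0.575% ± 0.039 and 0.596% ± 0.021 (SD, n = 4), and those of the 60S subunit 0.707% ± 0.040 and 0.720% ± 0.017 (SD, n = 4). Against the signal of all genes the members held 1.18% ± 0.065 in controls and 1.26% ± 0.038 in mutants (SD, n = 4). The difference in this share of the signal of all genes was 0.073 percentage points, larger than either SD. Gm42418 (chr17:39846958-39848788), which overlaps a ribosomal RNA sequence, took 5.1% ± 0.63 of that signal in controls and 2.08% ± 0.39 in mutants (SD, n = 4) and is part of that denominator. With Gm42418 and CT010467.1 left out, the members' means were 1.25% and 1.28%, a difference of 0.036 percentage points.

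**Figure D1:**
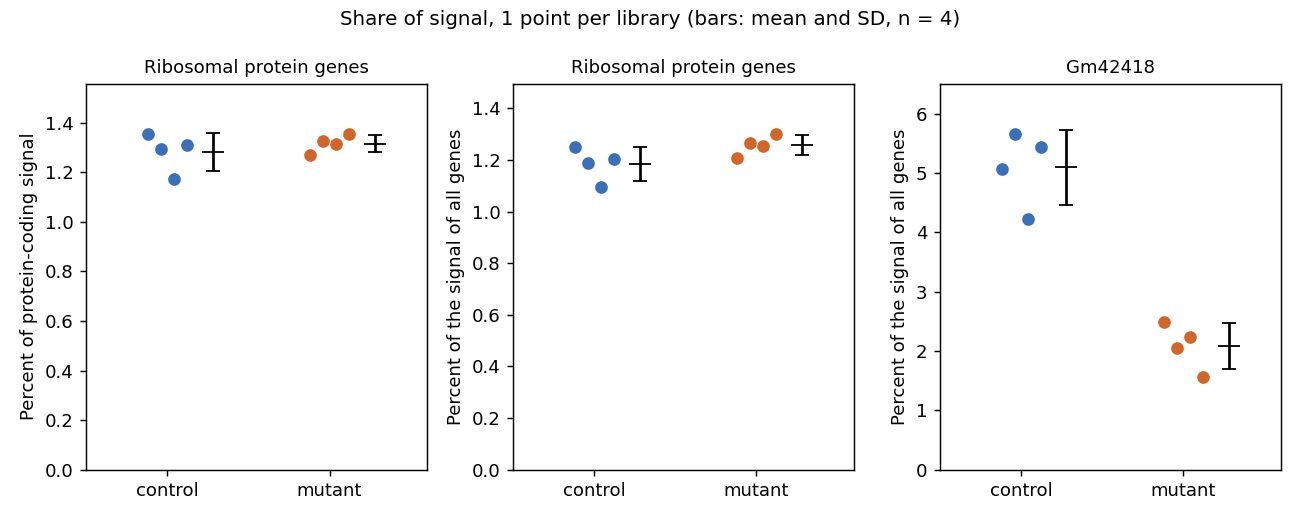
Share of the signal held by the 82 ribosomal protein genes, in percent of protein-coding genes (left) and of all genes (middle), and by Gm42418 in percent of all genes (right), with 1 point per library and the mean and SD of each group of 4. The ribosomal protein shares lie between 1.17% and 1.36% of the protein-coding signal and the groups overlap, whereas every mutant library lies below every control library for Gm42418.

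Gene by gene, no member passed the adjusted threshold. Of the 82 members, 80 had at least 10 counts in at least 4 libraries and were tested, and 0 of them had an adjusted p under 0.05 by limma, where 0.024% of all tested genes did. The smallest adjusted p among members was 0.754. Unadjusted, 8 of 80 were under 0.05 (10%), 4 in each direction, against 6.57% of all genes. edgeR and DESeq2 on the recovered reads also called 0 members, and DESeq2 gave the smaller lowest adjusted p, 0.346. A higher mean in mutants was seen for 44 of 80 members, with a median log2 difference of 0.02. Over all tested genes 49.96% had a higher mean, and the median was 0.00. Among the 40S genes 21 of 32 were higher (median 0.03), and among the 60S genes 23 of 48 (median -0.02). Without control 3, 34 of 80 members were higher and the median was -0.02, so the sign of this small difference changed without that library. In the libraries whose titles begin with 2057, which do not include control 3, 49 of 80 were higher (2 controls, 1 mutant, median 0.02).

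The counts limit what could be seen unequally across the members. The 43 members with a mean count of at least 1000 had log2 differences between -0.22 and 0.29, a median SE of 0.067, and 95% intervals within 0.5 of 0 for 41. The 37 with lower counts ranged from -0.80 to 1.29 with a median SE of 0.18, and 15 had intervals within 0.5 of 0. For the better-counted genes a log2 change of 0.5 in either direction thus lies outside the interval in 41 of 43, whereas for 22 of the rest it lies inside on at least 1 side. Within a group, the median SD of the 43 was 0.086 on the log2 scale. That of the 6670 tested coding genes with a mean of at least 1000, which were not matched to the members on count, was 0.105.

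**Figure D2:**
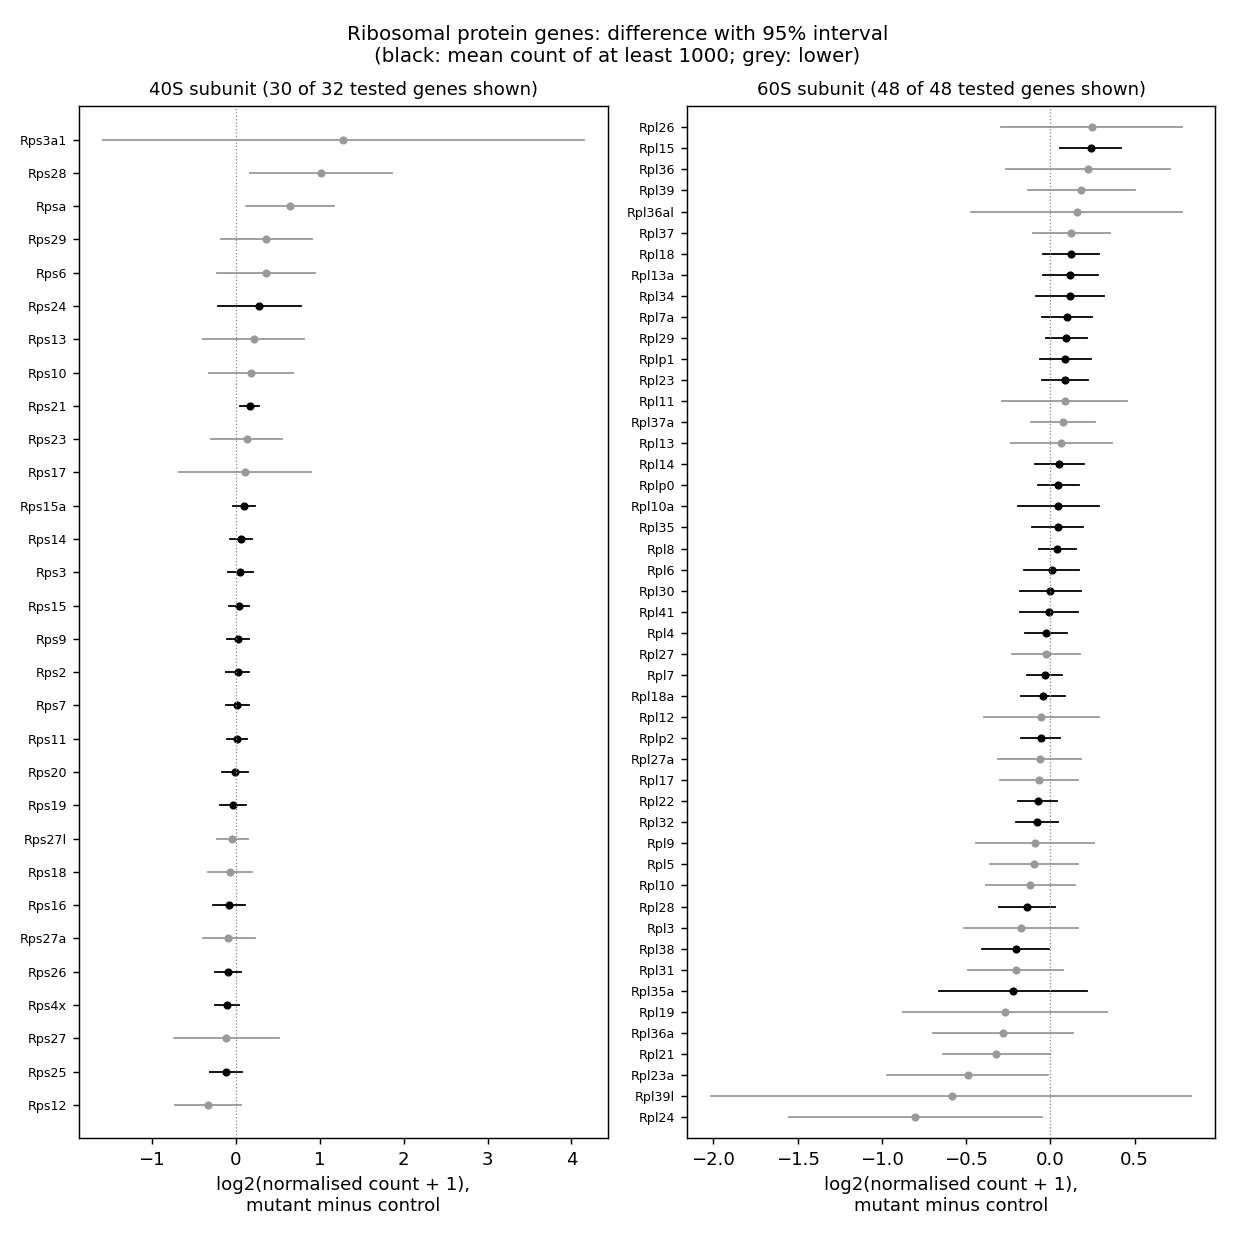
Log2 difference of the tested members, mutant minus control, leaving out 2 of the 40S genes, with limma's 95% interval, for the 40S genes (left) and the 60S genes (right) on separate axes; black points have a mean count of at least 1000. The black intervals are short and lie near 0, and the widest interval belongs to Rps3a1.

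The small-subunit gene with the smallest p was Rps21 (ENSMUSG00000039001, chr2:180257377-180258445), which encodes a protein of the 40S subunit. It had 4301, 4046, 4024 and 4156 normalised counts in controls 1 to 4 and 4471, 4658, 4803 and 4621 in mutants 1 to 4. Every mutant library lay above every control library. The log2 difference was 0.17 (SE 0.051), with an adjusted p of 0.754 by limma. All 100-base windows of its mRNA are found in no transcript of another annotated gene.

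Rps28 (ENSMUSG00000067288, chr17:33819027-33824562), a 40S protein near the mRNA exit site, had far fewer counts. Controls 1 to 4 had 39.4, 22.5, 67.7 and 78.6, and mutants 1 to 4 had 86.5, 100, 82.0 and 118. The groups did not overlap, although control 4 and mutant 3 were close. The log2 difference was 1.02 (SE 0.39, adjusted p = 0.754 by limma). It was 0.68 without control 2, and 0.66 (SE 0.26) with the counts of its 8 annotated pseudogene copies added. Rpsa, which encodes the 40S protein also known as the laminin receptor, had 107.5, 100.5, 82.1 and 135.5 in controls and 121, 162, 207 and 182 in mutants. Its log2 difference was 0.65 (SE 0.24), and mutant 1 lay within the range of the controls.

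In the large subunit, Rpl15 (ENSMUSG00000012405, chr14:18267823-18271391) had 1258, 1407, 1273 and 1459 counts in controls 1 to 4 and 1491, 1510, 1581 and 1795 in mutants 1 to 4. All mutant libraries were above all controls, by a margin that was small between control 4 and mutant 1. The log2 difference was 0.24 (SE 0.083, adjusted p = 0.754 by limma). Rpl29 had 2715 ± 89.3 in controls and 2902 ± 84.9 in mutants (SD, n = 4), again without overlap, and control 2 at 2582 stood below the other controls.

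Large-subunit genes with lower means were mostly thinly counted. Rpl24, a 60S protein that bridges to the 40S subunit and is mutated in the Belly spot and tail mouse, had 52.2, 69.3, 83.1 and 73.7 counts in controls 1 to 4 and 64.2, 36.0, 28.9 and 34.4 in mutants 1 to 4. Mutant 1 lay among the controls and the other mutants were below them, with a log2 difference of -0.80 (SE 0.34). The 8 annotated copies of Rpl24 had a mean of 48.4 counts beside its own 55.2, and with them added the difference was -0.52 (SE 0.23). Rpl23a, which lies at the exit of the peptide tunnel, had 100, 117, 124 and 134.5 in controls and 91.4, 76.7, 83.9 and 84.0 in mutants, and Rpl21 had 497 ± 80.9 and 396 ± 48.6 (SD, n = 4). Neither overlapped, but for Rpl21 control 1 at 424.9 and mutant 3 at 424.5 almost touched.

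Rpl38, whose loss in mice causes skeletal patterning defects through altered translation of Hox mRNAs, had 1835, 1878, 1527 and 1521 counts in controls and 1597, 1399, 1490 and 1359 in mutants. The first 2 controls were high and the other 2 lay within the range of mutants. Its log2 difference was -0.21 (SE 0.091, adjusted p = 0.754 by limma). Rpl28 and Rps12 were the remaining genes of smallest p with a lower mean, at log2 differences of -0.14 and -0.32 (-0.215 for Rps12 without mutant 3), and Rps15a the remaining one with a higher mean, at 0.10.

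Of the 80 tested members, 4 were higher in every mutant library than in every control library (Rps21, Rps28, Rpl15 and Rpl29) and 2 were lower (Rpl21 and Rpl23a). Over all tested genes 1.86% were higher without overlap and 1.91% lower. None of the 6 passed the adjusted threshold. Only Rps21 of the 6 had all its 100-base windows unique. The unique share was 63.25% for Rpl21, 57.24% for Rps28, 49.92% for Rpl29, 26.6% for Rpl15 and 19.96% for Rpl23a. Pseudogene copies together averaged 73.7 counts beside 101.5 for Rpl23a and 210 beside 447 for Rpl21. They averaged 183 beside 2808 for Rpl29 and 53.3 beside 1472 for Rpl15. With them added the log2 difference went from -0.49 to -0.37, -0.32 to -0.29, 0.096 to 0.089 and 0.24 to 0.23, in that order.

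**Figure D3:**
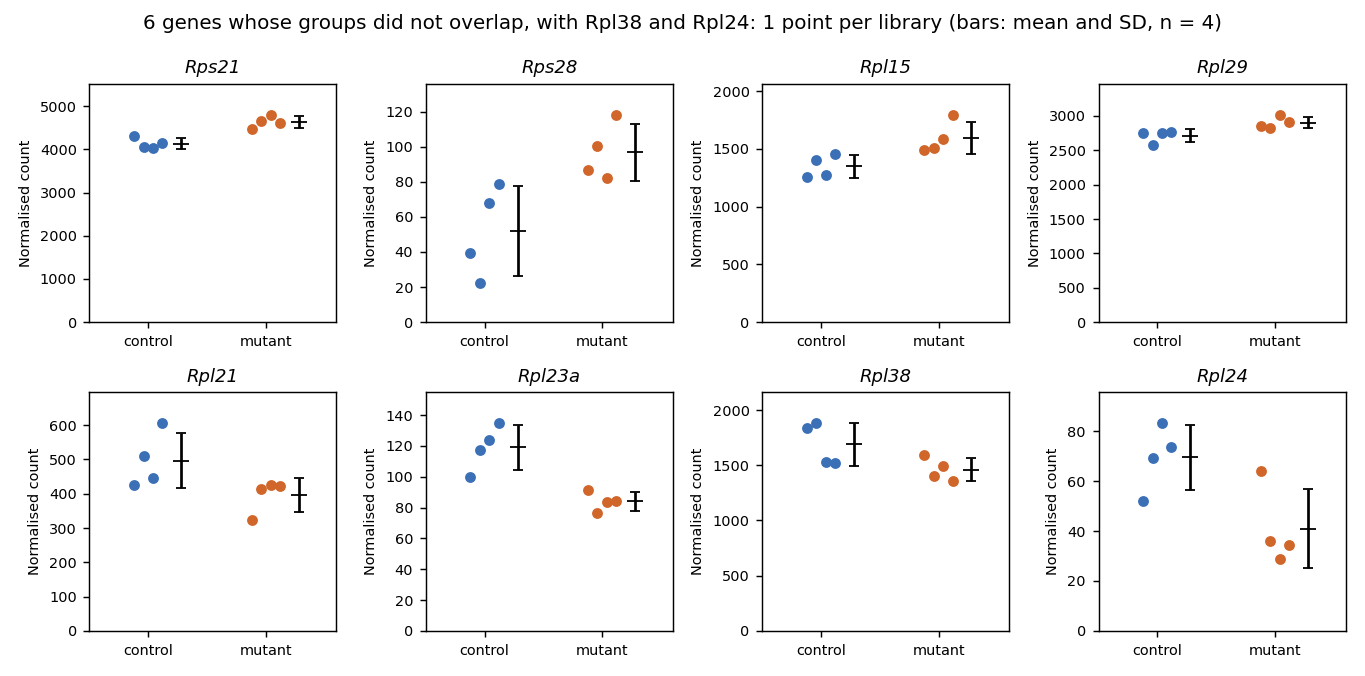
Normalised counts of the 6 members whose groups did not overlap and of Rpl38 and Rpl24, with 1 point per library and the mean and SD of each group of 4; each panel starts at 0 and has its own scale. Rps21, Rpl15 and Rpl29 have means above 1000 counts, whereas no library exceeds 134.5 counts for Rps28, Rpl23a or Rpl24.

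Rpl5 and Rpl11, which with 5S RNA form the particle that binds Mdm2 and stabilises p53, did not differ by more than their spread. Rpl5 had 615 ± 40.8 in controls and 579 ± 86.4 in mutants, and Rpl11 had 187 ± 21.3 and 198 ± 19.7 (SD, n = 4). Rps19, the gene most often mutated in Diamond-Blackfan anaemia, had 4054 ± 381 and 3966 ± 164 (SD, n = 4), and its log2 difference of -0.03 had a 95% interval within 0.2 of 0. The 21 members on the Diamond-Blackfan list were higher in 13 (median 0.04), and none passed. Rps27a, which is made as a fusion with ubiquitin, had 355 ± 25.1 and 337 ± 49.5. Fau, which yields a 40S protein, had 369 ± 84.7 and 317 ± 41.8 (SD, n = 4 throughout). These groups overlapped.

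The members with a symbol ending in l are paralogs, some of them restricted to a few tissues. Rpl10l, a testis paralog of Rpl10, was at 0 in all 8 libraries, where a count of 0 allows up to 3 reads in a library, counting error only. Rpl3l, a striated muscle paralog of Rpl3, was at 0 in 7 libraries and at 3.8 in mutant 2. Rpl39l was low and uneven, at 82.0, 23.4, 27.7 and 77.6 in controls and 63.2, 8.5, 24.1 and 57.7 in mutants. Rpl36al had 152 ± 48.4 and 165 ± 38.4, and Rps27l, a p53 target, had 913 ± 33.9 and 892 ± 71.4 (SD, n = 4). Rps27l was the best counted of the 5 paralogs.

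Genes that make or regulate ribosomes gave no adjusted call either. Of 60 ribosome biogenesis factors 36 had a higher mean in mutants (median 0.02). Ebna1bp2, a nucleolar factor of 60S assembly, had 2488 ± 138 in controls and 2147 ± 48.2 in mutants, and nucleolin (Ncl) had 36684 ± 1868 and 33144 ± 753 (SD, n = 4), both without overlap. Wdr75, of the small-subunit processome, was the reverse, with 1444 ± 137 and 1676 ± 74.8 (SD, n = 4). Of the 20 RNA polymerase I genes 7 were higher (median -0.03). Among 21 mTORC1 and TOP regulators 11 were higher (median 0.01), and Rps6kb1, the S6 kinase, had 3556 ± 234 and 3215 ± 153 (SD, n = 4).

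Translation factors and partners whose mRNAs are also known for TOP motifs had mostly lower means in mutants. Of 24 tested, 3 had a higher mean in mutants and 21 a lower one (median -0.09), and none passed the adjusted threshold. Npm1, the nucleolar chaperone, had 12295 ± 1061 and 11222 ± 86.5, and Eif4a2, an RNA helicase of initiation, had 5486 ± 632 and 4842 ± 341 (SD, n = 4). Ipo7, an importin that carries ribosomal proteins, had 6456 ± 257 and 5974 ± 243 (SD, n = 4) without overlap. The difference between this list and the members was not tested. The mitochondrial ribosomal protein genes, which form a separate ribosome, were higher in 48 of 77 (median 0.03), and nuclear genes of oxidative phosphorylation in 52 of 75 (median 0.05). Coding genes with an mRNA of 4000 bases or more had a median of -0.03 and those of 1000 to 2000 bases one of 0.02, and 61 of the members have an mRNA under 1000 bases, where the median of 890 coding genes was 0.01. The 5 proteins associated with ribosomes but outside the rule that were tested were higher in 3. Rack1, the 40S scaffold protein, had 30163 ± 1490 and 32152 ± 1119 (SD, n = 4).

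At gene starts, a pyrimidine run such as the TOP motif has could be looked for in RefSeq's promoter sequences (GRCm38.p6) for 62 of the 82 members. A run of at least 8 letters C or T on the gene's strand, reaching into the 10 bases on either side of an annotated start, was found for 28 of 62 (45.2%), against 15.8% of 27025 genes with a start. At 10 or more letters it was 22 of 62 (35.5%) against 8.14%, and at 6 or more 37 of 62 (59.7%) against 32.7%. The run did not have to begin at the start. Where a gene has several annotated starts, the longest run was kept. The following 4 have some of the longest runs or are described above, with 20 bases on either side of the start and the run in capitals, for Rpl7a (chr2:26910787-26910826, plus strand), Rpl34 (chr3:130730318-130730357, minus strand), Rpl15 (chr14:18270967-18271006, minus strand) and, with a run of only 7, Rps21 (chr2:180257359-180257398, plus strand).
Rpl7a: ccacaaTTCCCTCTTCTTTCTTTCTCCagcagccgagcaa
Rpl34: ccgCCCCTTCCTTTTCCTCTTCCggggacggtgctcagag
Rpl15: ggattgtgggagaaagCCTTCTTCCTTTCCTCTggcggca
Rps21: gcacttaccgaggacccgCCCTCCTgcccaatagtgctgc
The run is 21 letters long in Rpl7a, 20 in Rpl34 and 17 in Rpl15. Members with a run of at least 8 were higher in mutants in 14 of 28 (median 0.00) and the other matched and tested members in 19 of 32 (median 0.03). The run is a description of these letters, not a measured start of transcription.

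The widest variation of any tested member was that of Rps3a1, between libraries within a group, and its pseudogene copy shifted the other way. Rpl39l, with a 9.65-fold range, had no annotated copy. Rps3a1, Rps24 and Rps7, described next, and Rpl3, Rpl26 and Rpl35a were picked after their values had been seen. Rps3a1 (ENSMUSG00000028081, chr3:86137940-86142702), which encodes a protein of the 40S platform, had 60.7, 96.6, 1958 and 61.9 counts in controls 1 to 4 and 2112, 2056, 87.8 and 66.8 in mutants 1 to 4. The 3 libraries control 3, mutant 1 and mutant 2, were near 2000, and the other 5 were under 100. The log2 difference was 1.29 (SE 1.31), the largest of any member and smaller than its error. Its intronless copy Rps3a3 (chr13:108670603-108671397) had 3101, 3057, 1555 and 2854 in controls and 1534, 1631, 3235 and 3304 in mutants. The copy was low in exactly the 3 libraries in which Rps3a1 was high. The sum of both ranged from 2916 to 3686, a 1.26-fold range, against 34.8-fold for Rps3a1 alone. With all 9 annotated copies added, the log2 difference was 0.14 (SE 0.068, adjusted p = 0.752 by limma).

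Rps24 (ENSMUSG00000025290, chr14:24487125-24496959), which encodes a 40S protein and is mutated in some Diamond-Blackfan families, had 3086, 3042, 4777 and 2996 in controls 1 to 4 and 3022, 5779, 5580 and 3038 in mutants 1 to 4. The high libraries were control 3, mutant 2 and mutant 3, which are the 3 whose titles begin with 3602. The copy Rps24-ps3 (chrX:79195047-79195448) was at 1909 to 2106 in those 3 and at 3457 to 3830 in the other 5. The sums were 6642 ± 112 in controls and 7228 ± 537 in mutants (SD, n = 4). Rps24 alone had a log2 difference of 0.29 (SE 0.23), and 0.12 (SE 0.058) with all 9 copies added. Leaving out 1 library moved it between 0.13 (without mutant 2) and 0.45 (without control 3). Within titles beginning with 3602 the difference was 0.25 (1 control, 2 mutants), and within those beginning with 2057 it was 0.01 (2 controls, 1 mutant). The labels do not say what the title number is, and the high set of Rps3a1 libraries is a different one.

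Rps7, a 40S protein mutated in some Diamond-Blackfan families, was even, from 4443 to 5342 across the 8 libraries. Its copy Gm6472 (chrX:152909505-152910155) had 738 counts in control 1 and 751 in mutant 3, and 6.8 to 22.7 in the other 6 libraries. Rpl35a, a 60S protein, had 1564, 1597, 1893 and 1821 in controls and 1869, 1031, 1136 and 2134 in mutants, so that mutants 2 and 3 lay below all other libraries. Its 19 annotated copies together had a mean of only 20.3 counts. Rps24 and Rpl35a were the only members with a mean of at least 1000 whose highest library exceeded the lowest by more than 1.5 times. The median of that ratio over the 43 was 1.22.

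**Figure D4:**
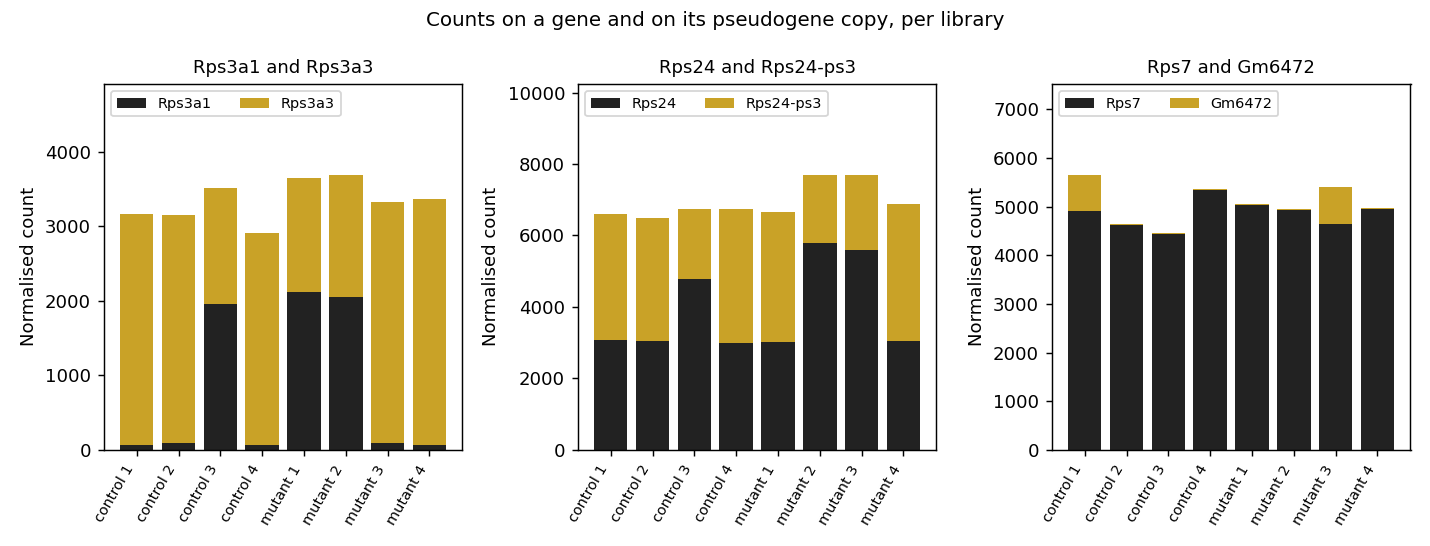
Normalised counts of Rps3a1, Rps24 and Rps7 (dark) stacked on those of a pseudogene copy (yellow) in each of the 8 libraries; bars start at 0 and the scale differs between panels. The height of the Rps3a1 and Rps24 bars varies little (1.26-fold and 1.18-fold) while the split between gene and copy shifts, and the Gm6472 part is visible only in control 1 and mutant 3.

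For other members nearly all counts stood on the copy in every library. Rpsa had a mean of 137 counts, and Rpsa-ps10 (chr3:150072658-150073542) had 8732 to 10158, so Rpsa took 0.914% to 2.23% of the sum. The sum was 9329 ± 302 in controls and 9555 ± 634 in mutants (SD, n = 4), and with all 27 copies added the log2 difference was 0.03 (SE 0.058), where Rpsa alone had 0.65. Rpl3, a 60S protein that reaches towards the peptidyl transferase centre, took 10.8% to 15.9% of its sum with Rpl3-ps1, and Rpl26 5.27% to 7.87% of its sum with Gm15772. Gm15772 itself had 1427 ± 92.2 in controls and 1642 ± 148 in mutants (SD, n = 4), without overlap and not past the adjusted threshold. Adding the copies moved the log2 difference by over 1.5 times for Rps3a1, Rps24, Rps28, Rpsa, Rpl3, Rpl5 and Rpl24 among the named members (Rpl3 from -0.17 to -0.095, Rpl5 from -0.095 to 0.015). The log2 difference of each of these genes, and of Rpl26, on its own is therefore uncertain. Those of Rpl15, Rpl21, Rpl23a and Rpl29 moved less, but whether their reads were told apart from those of copies was not tested.

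The copies differ from the genes at few positions. Over the coding sequence Rps3a3 matches Rps3a1 at all but 9 of 795 bases (98.9%), Rps24-ps3 matches Rps24 at all but 4 of 402 (99.0%), and Rpsa-ps10 matches Rpsa at all but 6 of 885 aligned bases (99.3%). Rpl3-ps1 differs at 2 of 1209 aligned bases, Gm15772 at 2 of 438 and Gm6472 at 3 of 585. The 90 bases with the most differences are shown for the first 3 pairs because a read that covers none of these positions has the same letters in gene and copy. Differing bases are in capitals, and positions count from 1 at the A of the start codon. The Rps3a1 stretch is chr3:86141333-86141422 (minus strand) and the Rps3a3 stretch chr13:108670773-108670862 (plus strand), with T216C and T260C from gene to copy. For Rps24 (chr14:24492021-24492110, plus strand) and Rps24-ps3 (chrX:79195230-79195319, plus strand) the differences are C207T and G273C. For Rpsa (chr9:120128619-120129243, plus strand, across an intron) and Rpsa-ps10 (chr3:150073324-150073413, minus strand) they are T210C and C219T. All coordinates are GRCm38.
Rps3a1: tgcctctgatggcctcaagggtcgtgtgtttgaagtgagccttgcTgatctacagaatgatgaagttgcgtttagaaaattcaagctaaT
Rps3a3: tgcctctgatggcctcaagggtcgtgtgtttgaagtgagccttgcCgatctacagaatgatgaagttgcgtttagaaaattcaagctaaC
Rps24: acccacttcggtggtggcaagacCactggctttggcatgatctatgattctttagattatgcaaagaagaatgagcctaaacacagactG
Rps24-ps3: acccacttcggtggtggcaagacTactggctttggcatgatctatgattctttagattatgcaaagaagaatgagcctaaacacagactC
Rpsa: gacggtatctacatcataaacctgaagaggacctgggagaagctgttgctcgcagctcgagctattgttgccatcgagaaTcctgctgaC
Rpsa-ps10: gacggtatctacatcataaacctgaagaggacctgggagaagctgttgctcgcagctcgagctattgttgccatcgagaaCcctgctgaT
The longest stretch without a difference is 215 bases in the Rps3a1 pair, 206 in the Rps24 pair and 350 in the Rpsa pair. Which letters the libraries themselves carried at these positions was not examined, because no reads were used, and the reason for the shifts between libraries was not tested.

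Levels per length differed widely between members. Normalised counts per kb of mRNA, averaged over the 8 libraries, ran from 81.6 for Rpl24, 85.8 for Rpsa and 87.6 for Rpl19 to 30404 for Rpl4, 30878 for Rps9 and 31284 for Rpl8 among the 77 members whose symbol does not end in l, a 384-fold range. The top 3 were nearly level: Rpl8, a 60S protein close to the peptidyl transferase centre, had 26239 ± 849 counts in controls and 27006 ± 731 in mutants, Rps9 22933 ± 1187 and 23446 ± 1459, and Rpl4, an exit tunnel protein, 47153 ± 1611 and 46370 ± 2124 (SD, n = 4). Per length, 17 of the 77 were above 10000 and 21 below 500. Among members with a mean of at least 1000, the lowest per kb were Rps15a at 442, Rpl28 at 1025 and Rpl10a at 1498. The Rps15a value is divided by an annotated mRNA of 5130 bases and would be higher with a shorter one.

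The level went with how unique the mRNA is. For each member the 100-base windows of its mRNA were compared with the annotated transcripts of all other genes, pseudogenes included. The 33 members with fewer than 50% of windows unique had a median of 817 counts per kb, the 20 with 50% to 75% a median of 1529, and the 24 with at least 75% a median of 13610. Spearman's rho across the 77 genes was 0.62, and 0.55 with 50-base windows. These genes share libraries and annotation and are not independent replicates. Annotated pseudogenes that hold a whole 50-base window of a member's mRNA numbered 1100 for 79 of the 82 members, with up to 121 for Rpl7a, and 1001 of them had a mean under 10 counts. Only 5 pseudogenes had a mean of at least 1000, and rho was 0.63 with the copies of each member added. With copies, the members held 1.26% ± 0.073 of the signal of all genes in controls and 1.34% ± 0.044 in mutants (SD, n = 4). That difference was 0.076 percentage points, and the denominator includes Gm42418, which was lower in mutants. Rpl10, with 8.43% of windows unique, had 817 counts per kb, and Rps21, with 100%, had 11129. Other members, also picked by their values, went against the trend. Rpl39, with 98.25% of windows unique, had 937 counts per kb, and Rps7, with 33.7%, had 5928. The sources used here do not say whether reads that fit several places were counted, so the levels of members with few unique windows are uncertain, and the part of this in the order of the levels was not tested. The median log2 difference was 0.01 for the 33, -0.03 for the 20 and 0.04 for the 24, with median SEs of 0.12, 0.10 and 0.060.

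**Figure D5:**
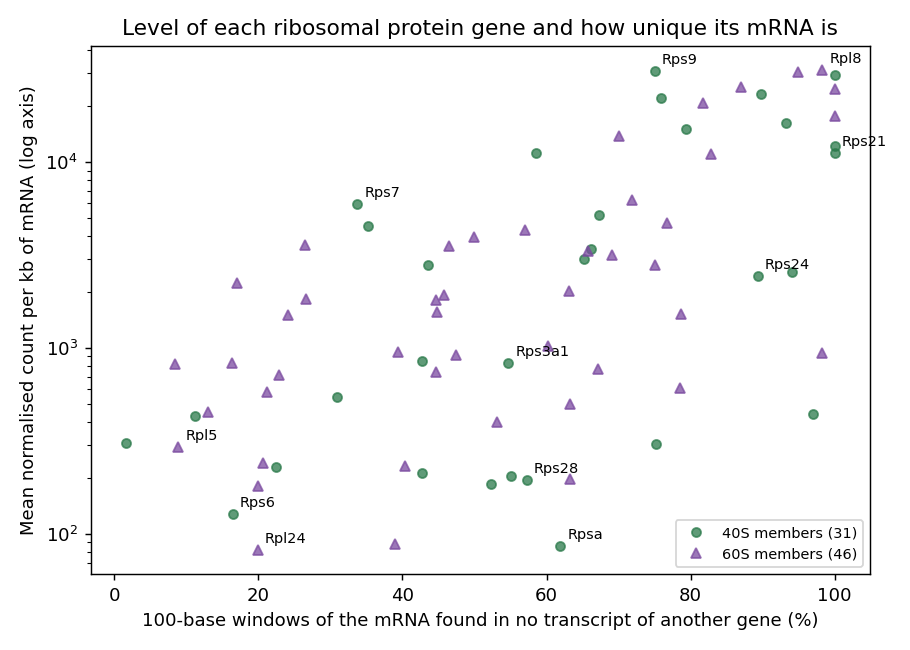
Mean normalised count per kb of mRNA over 8 libraries (log axis) against the percent of 100-base windows of the mRNA found in no transcript of another gene, for the 77 members whose symbol does not end in l, 31 of the 40S (circles) and 46 of the 60S subunit (triangles). The 17 members above 10000 counts per kb have at least 58.6% unique windows, and no member with less than 25% unique windows exceeds the 2239 of Rpl35.

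Among the 8 libraries, control 3 stood lowest. It was the lowest library for 22 of the 43 members with a mean of at least 1000 and the highest for none, and its mean log2 deviation from the average of the 8 was -0.08 over these genes. The other 7 libraries lay between -0.03 and 0.04, with control 1 and mutant 4 highest. The range of the controls therefore covers that of the mutants. Within libraries whose titles begin with 2057 (2 controls, 1 mutant) 49 of 80 members were higher in the mutant (median 0.02), and within those beginning with 3602, which hold control 3, 55 of 80 were higher (1 control, 2 mutants, median 0.09). The medians over all genes within these sets were 0.001 and -0.002. The remaining titles hold a single library each.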

How the data were processed

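RNA-seq of 4 control and 4 mutant libraries was used. The deposited signal values are normalised counts, and the deposited log2 values are variance-stabilised counts used in 1 alternative; STAR 2.7.2 and DESeq2 (no version) are named per the submitters' processing notes. Counter, strand setting, annotation and build: not given in the sources used here. Positions equalled those of GENCODE vM21 (GRCm38) for 95.2% of IDs. Whole reads were recovered by dividing by the value of 1 read: 100% of values between 50 and 5000 were within 0.06 of a whole number, and edgeR called 5 genes on them.

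Genes with at least 10 in at least 4 of 8 libraries were fitted with limma 3.58.1 (trend, R 4.3.3) on log2(value + 1), two-sided, with Benjamini-Hochberg adjustment over all genes. edgeR 4.0.16 and DESeq2 1.42.0 were alternatives. The test was checked on simulated data. Level per kb used 1 protein-coding transcript per gene, and coding sequences were aligned with Biopython 1.88. Named members were the 6 of smallest p in each direction, the 3 highest and 3 lowest per kb with a mean of at least 1000, those ending in l, Rpl5, Rpl11, Rps19, Rpl38 and Rps27a, and up to 3 genes of each list. Members and lists were chosen with earlier results of these data known, and the comparison with pseudogenes and the window uniqueness were added after seeing the data. Single-gene results of a few members and related genes are not reported here.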

Additional observations from a re-analysis of the deposited data

Results flagged for a closer look

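In 74 groups of 4 libraries (the named members, 6 pseudogene copies and the members' share), 8 had 1 library far from the other 3. Chance flags about 1 in 20 groups, but 6 of the 8 are in Rps3a1, Rps24 and copies of these and of Rps7, which were picked after their values had been seen, so the 8 cannot be set against that rate. The measure is the gap to the nearest library divided by the group's range. Control 3 stood apart for Rps3a1 (0.981) and, on the low side, for its copy Rps3a3 (0.840), and likewise for Rps24 (0.950) and its copy Rps24-ps3 (0.843). Gm6472 was high in control 1 (0.985) and in mutant 3 (0.979). Control 2 was low for Rpl29 (0.860), and mutant 1 was low for Rpl21 (0.901).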

How the results depend on the processing

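In all 23 alternatives 0 members passed the adjusted threshold. The number of genes called, 4 in the reported fit, was 28 with DESeq2 on recovered reads (3 higher, 25 lower) and 0 with robust variances, and 0 to 11 when 1 library was left out. It was 0 without control 2, control 4 or mutant 3, 11 without control 3 and 8 without mutant 4. Members with a higher mean numbered 34 to 49 of 80 when 1 library was left out (34 without control 3), and their median log2 difference ran from -0.018 to 0.035. With the first title number as a block, which the labels do not explain, 54 of 80 were higher, the median was 0.076 and 6 genes were called, none a member. The same block gave Rps3a1 a log2 difference of -1.20 against 1.29 and Rps19 0.08 against -0.03. Control 1 and mutant 1 are alone under their title numbers, so with the block they do not enter the difference. It then rests on titles beginning with 2057 and 3602, within which Rps3a1 differed by -0.21 and -2.20. Why libraries differ between title numbers was not tested. Within titles beginning with 3602, which hold control 3, the members' share differed by 0.148 percentage points, and within those beginning with 2057 by 0.053. Leaving out 1 library gave -0.003 to 0.057. Scaling by the protein-coding total moved the median of all genes by 0.03 and that of members to 0.05. With pseudogene copies added, 5 genes were called and the members' median was 0.02. On the authors' stabilised values the log2 difference was 0.149 for Rps28, 0.139 for Rpsa and -0.107 for Rpl24.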
